A study of Mus musculus with 20 samples.

Results

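The mouse mitochondrial genome carries 37 genes, and all of them have an entry in the FPKM table deposited for these kidneys: 13 mRNAs, 2 rRNAs and 22 tRNAs, out of 33368 entries. They were chosen as the entries that the authors' annotation takes from the Ensembl R76 gene model, a rule that uses no measured value, although earlier results of these data were known when it was set. All 37 were also found in the deposited table of estimated counts, which covers 47069 genes, and the positions of all 37 equal those of the GENCODE annotation of the GRCm38 build. The 13 mRNAs and both rRNAs were above 0 in each of the 20 mice, with estimated counts between 5112 for mt-Atp8 and 1240900 for mt-Co1 in a single mouse. The 22 tRNAs were listed at 0 in all 20 mice in both tables.

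Total RNA was taken from whole kidneys of 20 male mice when they were 15 weeks old. All mice were F1 animals of a 129SJ and C57Bl/6J cross, with 1 library per mouse. The WT group held 5 littermates that received no injection. The other 15 mice were F1-Col4a3-/-, a model of Alport nephropathy that lacks the α3 chain of type IV collagen throughout the body. The Veh group held 6 of them, injected under the skin with PBS once a week, starting at 5 weeks. Another 6 formed the Anti-miR-21 group and were given lademirsen, an antisense oligonucleotide against miR-21, by the same weekly injection at 50 mg/kg in PBS. The ACEi group held 3 that drank the angiotensin-converting enzyme inhibitor ramipril at 11 mg/L and also received the PBS injections. No WT mouse received PBS, so injection and genotype cannot be told apart between Veh and WT.

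Mitochondria keep a small circular genome of their own, present in many copies per cell. Its mRNAs encode core subunits of respiratory complexes I, III and IV and of the ATP synthase, called complex V, while all subunits of complex II and most subunits of the others are encoded in the nucleus. The genome is transcribed from both strands as long precursors that are cut at the tRNAs, so that transcripts of one strand start out in equal amounts and come to differ through processing and stability. The kidney cortex, and its proximal tubules above all, is rich in mitochondria because reabsorption of filtered solutes uses much ATP.

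The 13 mRNAs are up to 1824 bases long with a GC content of 31.9% to 41.1%, and 12 of them are read from the same strand as both rRNAs. mt-Nd6, a complex I subunit, is the mRNA read from the opposite strand. The genes are so tightly packed that neighbours overlap, which bears on how reads can be assigned to them. The stretch where mt-Atp8 runs into mt-Atp6, both subunits of the ATP synthase, is shown first, with the 43 bases that belong to both genes in capitals. The ends of mt-Nd5 and mt-Nd6, complex I subunits read from opposite strands, follow, each in its own direction and with the 14 shared base pairs in capitals. All sequences are those of the GRCm38 reference with GENCODE gene models, written 5′ to 3′, and the positions are MT:7915-7981 on the plus strand, MT:13540-13565 on the plus strand and MT:13552-13577 on the minus strand.
mt-Atp8 into mt-Atp6: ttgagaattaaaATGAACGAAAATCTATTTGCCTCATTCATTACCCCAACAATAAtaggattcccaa
end of mt-Nd5: tcttatactcaaTTAATCTCGAGTAA
end of mt-Nd6: ttattatcgagaTTACTCGAGATTAA
The shared stretch of the ATP synthase genes opens with the ATG of mt-Atp6 and closes with the TAA of mt-Atp8. Whether the libraries kept the strand of the RNA is not given in the sources used here, so reads of mt-Nd6 and reads antisense to it cannot be told apart.

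Some of these mRNAs also lack a stop codon in the genome itself, and the stop is completed by the poly(A) tail. In the reference 8 mRNAs end in TAA, 2 end in TAG (mt-Nd1 and mt-Nd2), and 3 end in a single T of the last codon. The last 24 bases of mt-Co1, which has a whole stop codon, are set beside those of the 3 genes that do not, with the last codon or the part of it that is present in capitals. They lie at MT:6849-6872, MT:9367-9390, MT:11521-11544 and MT:15265-15288 on the plus strand.
end of mt-Co1: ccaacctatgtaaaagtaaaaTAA
end of mt-Co3: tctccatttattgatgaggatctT
end of mt-Nd4: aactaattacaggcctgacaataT
end of mt-Cytb: acaaaatactaaaattatatccaT
At the other end, 9 mRNAs start with ATG, and mt-Nd2 with ATA, mt-Nd3 with ATT, mt-Nd5 with ATC and mt-Nd1 with GTG.

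The tRNAs are between 59 and 75 bases long, shorter than the 100-base reads of these libraries. The shortest and the longest are printed whole, as mt-Ts2 at MT:11613-11671 and mt-Tl1 at MT:2676-2750, to show what a fragment would have to span.
mt-Ts2: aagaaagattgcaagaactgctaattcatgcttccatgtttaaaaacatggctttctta
mt-Tl1: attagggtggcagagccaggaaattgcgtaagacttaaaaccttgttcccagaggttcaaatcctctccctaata
A count of 0 allows up to 3 counts, which is 1.05e-05% of the smallest library, and covers counting error only. Whether tRNAs were lost before sequencing or in counting was not tested, and no level of a tRNA can be given.

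The libraries were of nearly equal depth, with 28474301 to 29479629 estimated counts per mouse. Col4a3, the disrupted gene, lay between 193.8 and 237.5 CPM (counts put on an equal total per library with TMM) in WT mice and between 27.9 and 74.9 CPM in the 15 F1-Col4a3-/- mice. The libraries were run on 2 flow cells, A with 13 libraries and B with 7, and each group had libraries on both. The groups were not balanced over them. A and B held 3 and 2 libraries of WT, 4 and 2 of Veh, 5 and 1 of Anti-miR-21, and 1 and 2 of ACEi. The factors by which TMM, edgeR's scaling between libraries, multiplies the library total separated WT (0.771 to 0.850) from Veh (1.12 to 1.26), with the treated groups between them (0.882 to 1.05). Levels below are given in FPKM, fragments scaled by transcript length and library total, which do not use those factors. Differences of the members are given on both scales, and those of the lists of nuclear genes on TMM-scaled counts.

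In WT kidneys the mitochondrial mRNAs were among the most abundant transcripts. By mean FPKM 7 of the 10 highest entries and 13 of the 20 highest were genes of this genome, and mt-Co1, mt-Co3 and mt-Co2, the catalytic core of cytochrome c oxidase, ranked 2, 3 and 4 among all entries. Mean FPKM in WT ran from 2520 ± 576 (SD, n = 5) for mt-Atp8 to 27596 ± 1569 for mt-Co1, an order that compares levels per length. The rRNAs were far lower in these libraries, at 407 ± 37.7 FPKM for mt-Rnr1 of the small subunit and 326 ± 53.9 FPKM for mt-Rnr2 of the large subunit. Whether rRNA was removed or poly(A) RNA selected is not given in the sources used here, so the rRNA values may not stand for the rRNA content of the kidney. In Veh the same 7 genes were among the 10 highest entries, and 10 genes of this genome among the 20 highest, against 13 in Anti-miR-21 and 12 in ACEi.

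The 37 genes together held 13.1 ± 0.742% of all estimated counts in WT (SD, n = 5), with a range of 12.1% to 13.9%. In Veh the share was 7.04 ± 0.767% (n = 6), between 5.95% and 8.14%, so that the highest Veh mouse lay below the lowest WT mouse. In Anti-miR-21 it was 11.1 ± 1.18% (n = 6), between 9.45% and 12.6%, and in ACEi 10.1 ± 0.561% (n = 3), between 9.49% and 10.5%. Both treated groups lay above every Veh mouse. Anti-miR-21 overlapped with WT and with ACEi, and ACEi lay below every WT mouse. Veh also lay below WT within each flow cell. On A the share was 12.9% to 13.9% in WT and 5.95% to 7.56% in Veh, and on B 12.06% and 12.96% in WT and 6.87% and 8.14% in Veh. The rRNAs contributed 0.089%, 0.076%, 0.099% and 0.117% of counts on average in WT, Veh, Anti-miR-21 and ACEi. As a share of summed FPKM the 37 entries held 23.7 ± 1.04%, 13.996 ± 1.35%, 20.4 ± 1.496% and 18.8 ± 0.539% in the same order.

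**Figure D1:**
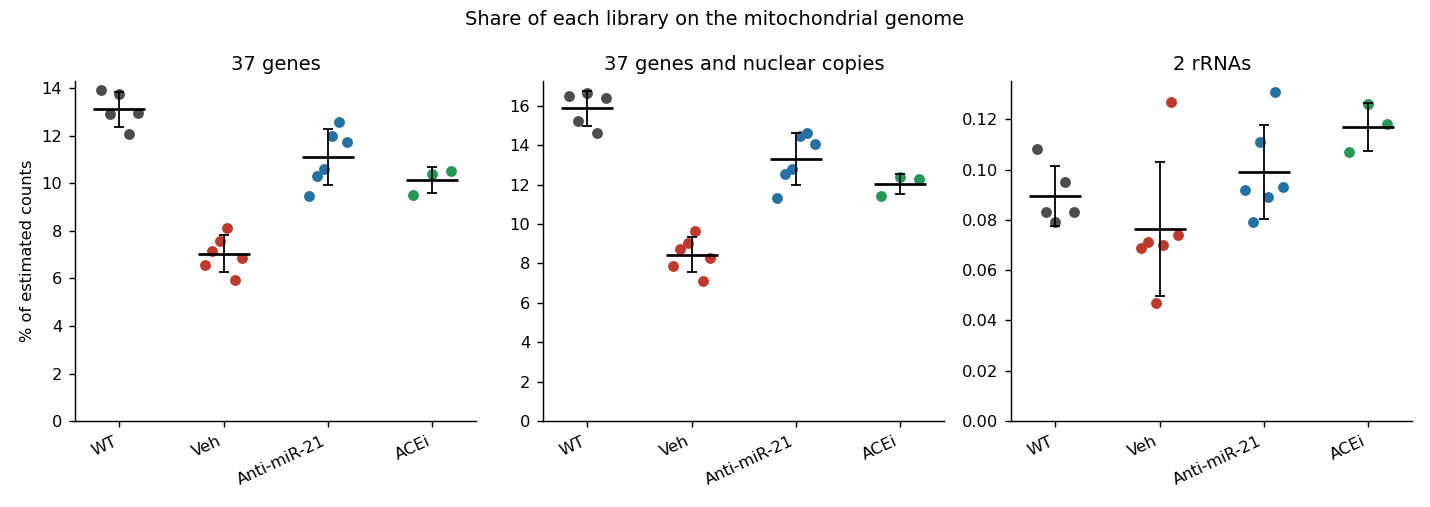
Share of each library held by the 37 mitochondrial genes, by mouse and group. The 6 Veh mice lie between 5.95% and 8.14% of estimated counts, below all 5 WT mice at 12.1% to 13.9%, and the treated mice lie between 9.45% and 12.6%.

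The comparison of Veh with WT asks what the loss of type IV collagen α3 and the kidney disease that follows it did to these transcripts. All 13 mRNAs were lower in Veh, at 42.7% (mt-Nd2) to 58.8% (mt-Co1) of the WT mean FPKM with a median of 49.5%. The limma test on log2(FPKM + 1) called 13 of the 15 measured members lower, which were the 13 mRNAs, against 14.6% of all 17709 entries tested in that direction. The edgeR test on the estimated counts called all 15 lower, the rRNAs included, against 34.0% of 17622 genes. For 12 of the 15 the Veh and WT mice did not overlap in FPKM, against 10.6% of all entries that were lower without overlap. The median difference of the mRNAs was -1.02 on log2 FPKM, where the median of all entries was 0.36, and -1.56 on log2 counts, where the median of all genes was 0.07. These are bulk samples, in which fewer cells of a type and less RNA per cell cannot be told apart.

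The 7 complex I subunits of this genome, which belong to the membrane arm of NADH dehydrogenase, fell by 0.86 to 1.24 on log2 FPKM and by 1.44 to 1.82 on log2 counts. Of all members, mt-Nd2 had the largest fall on both scales. Its FPKM in the 5 WT mice was 9688, 8316, 9957, 8658 and 9905, and in Veh the lowest, median and highest mouse had 3203, 3892 and 5159. Every Veh mouse lay below every WT mouse, a log2 difference of -1.24 ± 0.15 (SE, limma adjusted p = 1.79e-07). mt-Nd6, the light-strand product, had 5474, 5290, 5844, 5075 and 5344 FPKM in WT and 2335, 2764 and 3251 as the lowest, median and highest in Veh. The groups did not overlap, and the difference of -0.98 ± 0.12 (adjusted p = 1.79e-07) was near that of mt-Nd1 (-0.86 ± 0.15), mt-Nd3 (-1.03 ± 0.12), mt-Nd4 (-1.10 ± 0.14), mt-Nd4l (-1.12 ± 0.14) and mt-Nd5 (-1.06 ± 0.13), which come from the other strand. Differences between these members were tested only on the scale relative to a mean of mitochondrial mRNAs, given further on.

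mt-Cytb, the cytochrome b of complex III, had 18655, 16758, 19194, 16606 and 19104 FPKM in WT. In Veh the lowest, median and highest were 7140.0, 9040 and 10242, all below WT, with a log2 difference of -1.02 ± 0.17 (limma adjusted p = 1.12e-05). mt-Co1, the catalytic subunit of complex IV, had 29197, 27925, 28501, 25098 and 27259 FPKM in WT. In Veh its lowest, median and highest were 14187, 16431 and 17979, again without overlap, a difference of -0.77 ± 0.18 (adjusted p = 0.000806). The other complex IV subunits of this genome fell to a like degree, mt-Co2 by 0.82 ± 0.18 and mt-Co3 by 0.83 ± 0.18. On counts mt-Co1 fell by 1.35 ± 0.13 (edgeR adjusted p = 9.61e-09). On FPKM its call was lost when entries with low values were kept in the fit (adjusted p = 0.101).

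The ATP synthase subunits had the highest coefficients of variation among mRNA FPKM in WT. On counts with its nuclear copy summed in, mt-Atp6 was 17842 ± 1675 CPM in WT. mt-Atp6 had 2479, 3253, 3844, 3931 and 5873 FPKM there, and 1309, 1918 and 2213 as the lowest, median and highest in Veh. The groups did not overlap, with a difference of -1.03 ± 0.19 (limma adjusted p = 5.17e-05). mt-Atp8 had 2043, 2139, 2123, 3212 and 3083 FPKM in WT and 888, 1257 and 2377 in Veh. This was the one mRNA whose groups overlapped, and its difference was -0.84 ± 0.26 (adjusted p = 0.00626). The 2 higher WT values of mt-Atp8 were the 2 WT libraries of flow cell B. The same libraries had the 2 lowest WT values of mt-Nd5, 3991 and 3874 against 4866 to 5534 on flow cell A.

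The rRNAs behaved less uniformly. mt-Rnr1 had 456, 373, 376, 437 and 393 FPKM in WT, and 209.4, 346 and 588 as the lowest, median and highest in Veh. mt-Rnr2 had 412, 305, 278, 341 and 292 FPKM in WT, and 176, 249 and 465 in Veh. For both the groups overlapped, mouse A9 being the lowest and A19 the highest Veh mouse. On FPKM neither passed the test, with -0.23 ± 0.18 (limma adjusted p = 0.243) and -0.30 ± 0.18 (adjusted p = 0.131), while on TMM-scaled counts both did, with -0.77 ± 0.18 (edgeR adjusted p = 0.000843) and -0.85 ± 0.19 (adjusted p = 0.000423). The call on the rRNAs therefore turned on the scaling, since on counts scaled to library totals alone it was again lost (adjusted p = 0.355 and 0.195). Without A19 the FPKM call was made for both, with adjusted p = 0.0216 and 0.0049, and without A9 and A19 together it was made for mt-Rnr2 (adjusted p = 0.0181).

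**Figure D2:**
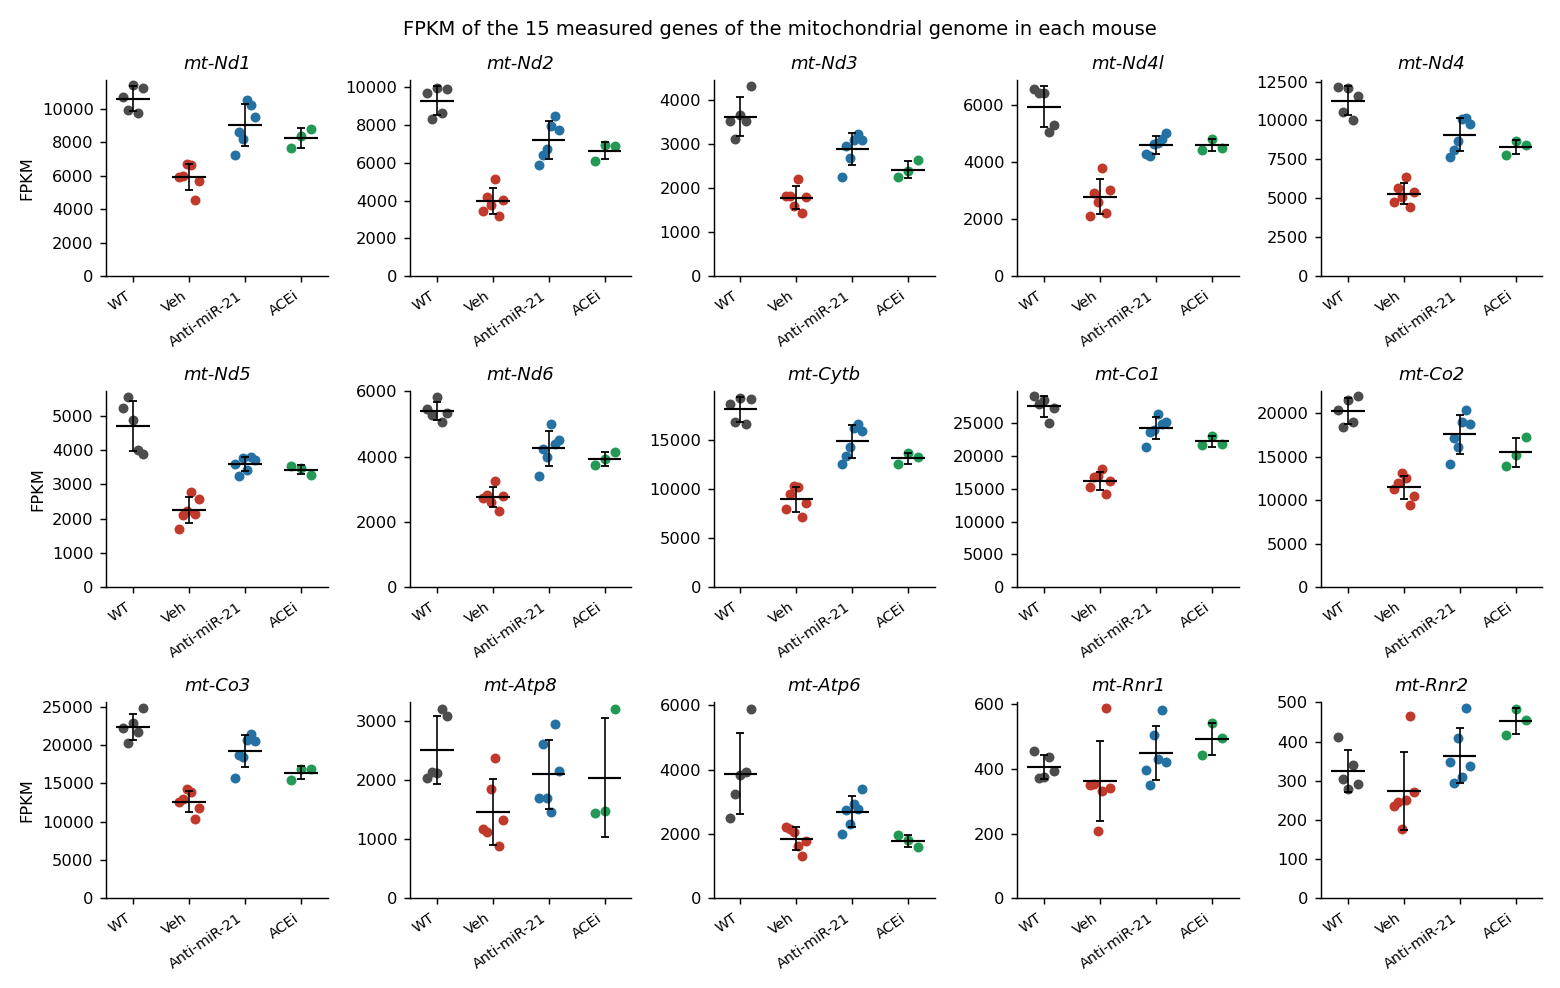
FPKM of the 15 measured mitochondrial genes in every mouse, by group. Veh mice lie below WT mice for 12 mRNAs without overlap, mt-Atp8 and both rRNAs overlap, and for 12 of the 13 mRNAs the treated groups' means lie between those of Veh and WT.

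Mice of a group moved together across mRNAs. A19 was the lowest Veh mouse for 11 of the 13 mRNAs and the highest for both rRNAs, and A16 was the highest for 8 mRNAs. In Anti-miR-21 mouse A2 was the lowest for 10 mRNAs, and in ACEi mouse A11 for 11. The coefficient of variation of mRNA FPKM had a median of 8.2% in WT, 14.02% in Veh, 12.5% in Anti-miR-21 and 5.5% in ACEi. For the rRNAs it lay between 34.0% and 36.1% in Veh and between 9.27% and 16.6% in WT. The ratio of summed mRNA to summed rRNA FPKM was 171 to 233 in WT and 60.4 to 215.3 in Veh, and it was 125 to 180 in Anti-miR-21 and 108 to 119 in ACEi. The ranges of WT and Veh overlapped, and those of WT and ACEi did not.

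The comparison of Anti-miR-21 with Veh asks what inhibition of miR-21 from 5 weeks of age changed in the diseased kidney. All 13 mRNAs had higher means under Anti-miR-21, at 144% (mt-Atp8) to 182% (mt-Nd2) of Veh with a median of 155%. On FPKM 13 of 15 members were called higher, 12 mRNAs and mt-Rnr2, against 13.5% of all entries. On counts 15 of 15 were called higher, against 28.8% of genes. For 11 of the 15 the groups did not overlap in FPKM, against 8.83% of entries, the exceptions being mt-Atp6, mt-Atp8 and both rRNAs. The median difference of the mRNAs was 0.63 on log2 FPKM (all entries -0.22) and 0.98 on log2 counts (all genes -0.04).

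mt-Nd2 again showed the largest difference, rising from a Veh median of 3892 FPKM to 5881, 7257 and 8501 as the lowest, median and highest of Anti-miR-21. No mouse of one group lay within the other, and the log2 difference was 0.87 ± 0.14 (limma adjusted p = 1.97e-05). mt-Cytb had 12556, 15095 and 16602 FPKM as its lowest, median and highest, above all Veh mice, a difference of 0.73 ± 0.16 (adjusted p = 0.000383). mt-Co1 had 21350, 24410 and 26391 FPKM, also above all Veh mice, a difference of 0.58 ± 0.18 (adjusted p = 0.00647). With entries of low values kept in the fit, mt-Co1, mt-Co2 and mt-Co3 were no longer called (adjusted p = 0.211, 0.0984 and 0.121). mt-Nd6 rose by 0.63 ± 0.11 (adjusted p = 4.93e-05) and the other complex I mRNAs by 0.62 to 0.78.

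Among the ATP synthase subunits, mt-Atp6 had 1996, 2761 and 3383 FPKM as lowest, median and highest under Anti-miR-21, and overlapped with Veh while passing the test, 0.54 ± 0.18 (limma adjusted p = 0.0116). mt-Atp8 had 1470.0, 1932 and 2958 FPKM and did not pass, 0.56 ± 0.25 (adjusted p = 0.052). mt-Rnr2 passed with 0.45 ± 0.17 (adjusted p = 0.0237) and mt-Rnr1 did not, 0.35 ± 0.17 (adjusted p = 0.0692). Single mice decided these last calls. Without Veh mouse A9 or without Anti-miR-21 mouse A15 the call of mt-Rnr2 was lost (adjusted p = 0.0703 and 0.0668), while mt-Rnr1 was called without A19 (adjusted p = 0.00331) or A8 (adjusted p = 0.0389). The call of mt-Atp8 was made without A9, A16, A2, A10 or A12, with adjusted p between 0.0116 and 0.0485.

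The comparison of ACEi with Veh asks the same of ramipril, with 3 treated mice. The mRNA means were 96.8% (mt-Atp6) to 168% (mt-Nd2) of Veh, with a median of 140% for the 13. On FPKM 10 of 15 members were called higher, the 7 complex I mRNAs, mt-Cytb and both rRNAs, against 10.4% of all entries. On counts 13 of 15 were called higher, all but mt-Co3 and mt-Atp8, against 21.0% of genes. In FPKM the ACEi mice lay above all Veh mice for 11 of the 15, against 9.27% of entries. The mRNA median was 0.49 on log2 FPKM (all entries -0.18) and 0.78 on log2 counts (all genes -0.05).

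mt-Nd2 had 6119, 6923 and 6917 FPKM in the 3 ACEi mice, above every Veh mouse, a difference of 0.76 ± 0.17 (limma adjusted p = 0.00115). mt-Cytb had 12494, 13603 and 13254 FPKM, above every Veh mouse too, a difference of 0.56 ± 0.19 (adjusted p = 0.0188). mt-Co1 had 21663, 23128 and 21892 FPKM, all above Veh, yet its difference of 0.46 ± 0.22 did not pass on FPKM (adjusted p = 0.079). On counts it did, 0.76 ± 0.15 (edgeR adjusted p = 0.00045). The other complex IV mRNAs did not pass on FPKM either, mt-Co2 with 0.43 ± 0.21 (limma adjusted p = 0.0801) and mt-Co3 with 0.38 ± 0.21 (adjusted p = 0.124).

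The rRNAs rose in ACEi by 0.50 ± 0.21 for mt-Rnr1 (limma adjusted p = 0.0444), with 443, 542 and 495 FPKM in the 3 mice, and by 0.78 ± 0.21 for mt-Rnr2 (adjusted p = 0.00403), with 418, 483 and 456 FPKM. Both overlapped with Veh mouse A19. mt-Atp8 had 1445, 1478 and 3209 FPKM, so that 1 mouse set its mean and spread, and did not pass. mt-Atp6 was the exception among the mRNAs, with 1977, 1797 and 1606 FPKM in ACEi, within the Veh range, and a difference of -0.03 ± 0.22 (adjusted p = 0.922). On counts mt-Atp6 was higher, 0.58 ± 0.20 (edgeR adjusted p = 0.0267), and with its nuclear copy summed in 0.75 ± 0.15 (adjusted p = 0.000625). On counts this call was lost without A13 or A23 (adjusted p = 0.128 and 0.063). Leaving out ACEi mouse A23 brought the FPKM calls from 10 down to 6, and that of mt-Rnr1 was lost without any of 8 of the 9 mice.

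**Figure D3:**
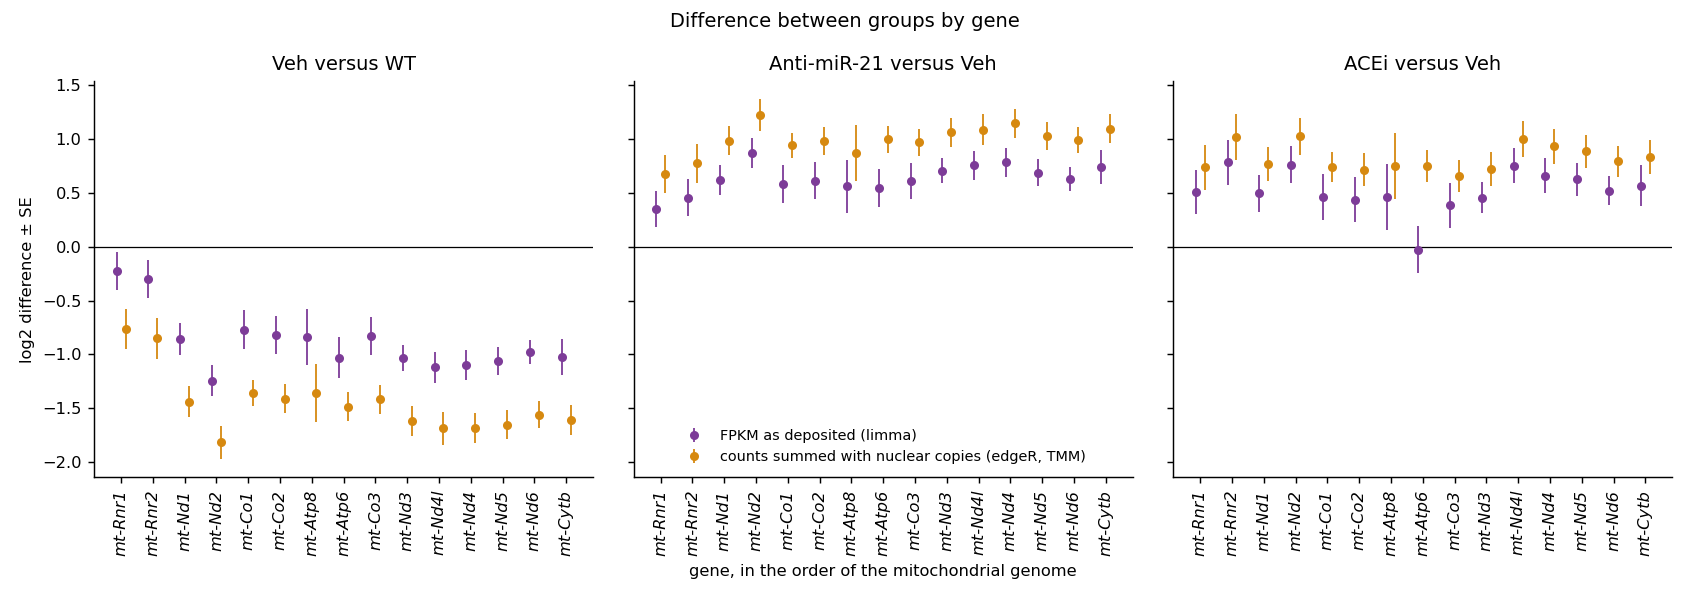
Log2 difference with its standard error for the 15 measured genes in Veh against WT and in each treatment against Veh, on FPKM and on TMM-scaled counts with nuclear copies summed in. All 13 mRNAs are below 0 in Veh against WT, with mt-Nd2 lowest at -1.24 on FPKM and -1.82 on counts, and all but mt-Atp6 in ACEi on FPKM (-0.03) are above 0 in the treated groups.

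Between the treatments no member passed the test on either scale. On FPKM 0 of 15 were called, against 0.706% of all entries, and 1 had an unadjusted p under 0.05. On counts 0 of 15 were called by edgeR, against 0.584% of genes, with 1 at an unadjusted p under 0.05, and DESeq2 called 0 as well. mt-Atp6 was the only member whose FPKM ranges were apart, higher in Anti-miR-21, against 8.21% of entries apart in either direction, and its difference was 0.57 ± 0.22 (limma adjusted p = 0.245). On counts its groups overlapped, and with the nuclear copy summed in they overlapped too, with a difference of 0.25 ± 0.16 (edgeR adjusted p = 0.481). The median over the mRNAs was 0.12 on log2 FPKM and 0.20 on log2 counts, with single differences between 0.00 (mt-Nd4l) and 0.57. With 3 ACEi mice the standard errors were 0.13 to 0.30 on log2 FPKM, so these data do not show that the treatments acted alike on this genome.

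Against WT, the treated groups were compared to see how far the levels stood from those of healthy littermates. In Anti-miR-21 the mRNA means were 69.5% (mt-Atp6, whose FPKM is uncertain) to 87.9% of WT, with a median of 80.6%. Lower calls were made for 6 of 15 members on FPKM (mt-Nd2, mt-Nd3, mt-Nd4l, mt-Nd5, mt-Nd6 and mt-Atp6), against 5.25% of entries, and for 9 of 15 on counts, against 19.8% of genes. The FPKM ranges were apart for 4 members, mt-Cytb, mt-Nd4l, mt-Nd5 and mt-Nd6, against 2.41% of entries. The FPKM calls were close to the threshold, with adjusted p between 0.0182 and 0.0428, and moved with single mice. Without WT mouse A14 or Anti-miR-21 mouse A8 1 was left, without A3, A2 or A10 2, and without A17 or A18 3. Within flow cell A, and with flow cell as a term, 2 were left.

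In ACEi the mRNA means were 46.3% (mt-Atp6) to 81.1% of WT, with a median of 73.1%. The FPKM of mt-Atp6 is uncertain because of a nuclear copy, described below. On counts with that copy summed in, its means were 17842 CPM in WT, 12703 in Anti-miR-21, 10705 in ACEi and 6376 in Veh. Lower calls were made for 6 of 15 members on FPKM (mt-Nd2, mt-Nd3, mt-Nd4, mt-Nd5, mt-Nd6 and mt-Atp6), against 7.30% of entries, and for 11 of 15 on counts, against 22.5% of genes. The FPKM ranges were apart and lower for 12 members, against 7.54% of entries. They were apart and higher for 1, mt-Rnr2, against 42.2% of entries. Leaving out any of the 3 ACEi mice left 3 FPKM calls. Neither rRNA passed the test against WT in either treated group with all groups fitted, on either scale. With only ACEi and WT fitted on FPKM both were called higher in ACEi (adjusted p = 0.036 for mt-Rnr1 and 0.0112 for mt-Rnr2), and without WT mouse A3 mt-Rnr2 was (adjusted p = 0.0415). By group mean FPKM, 12 mRNAs had the order WT, Anti-miR-21, ACEi, Veh from high to low. The summed counts of mt-Atp6 had that order too, while its FPKM had ACEi last. The rRNAs had ACEi highest and Veh lowest on FPKM. The neighbours Anti-miR-21 and ACEi in the order of the mRNAs did not pass the test of their difference for any member.

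To see whether the members kept their proportions, each was set against the mean of the 12 heavy-strand mRNAs of the same mouse on log2(FPKM + 1), a scale that does not depend on how libraries are scaled to each other. Between Veh and WT 3 of 15 members passed on this scale, against 96.3% of all entries. Nearly all of those entries were nuclear genes that moved against the mitochondrial reference. With so many entries passing, adjustment over all of them hardly changes a p-value. Adjusted values on this scale, in Veh against WT and in each treatment against Veh, therefore give little control for testing 15 members. mt-Rnr1 was higher relative to the mRNAs by 0.75 ± 0.20 (limma adjusted p = 0.000792) and mt-Rnr2 by 0.68 ± 0.20 (adjusted p = 0.00262). mt-Nd2 was lower by 0.26 on the log2 scale, relative to the mean of the 12 mRNAs, which includes mt-Nd2 itself. It was at 0.07 ± 0.07 (SD, n = 5) in WT and -0.19 ± 0.10 (n = 6) in Veh (difference -0.26 ± 0.10, limma adjusted p = 0.0126). mt-Nd6, which is read from the other strand, kept its proportion to within its error, 0.00 ± 0.10. Reads antisense to mt-Nd6 could not be told apart from its own, so this value may not be that of the light-strand product alone.

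The same scale showed few members apart under treatment, and the limit on its adjusted values holds for both comparisons with Veh. In Anti-miR-21 against Veh 1 of 15 passed, mt-Nd2 with 0.19 ± 0.09 (limma adjusted p = 0.0497), against 94.6% of entries, and the call was lost without any of 10 of the 12 mice of these groups. In ACEi against Veh 2 of 15 passed, mt-Nd2 with 0.26 ± 0.11 (adjusted p = 0.0364) and mt-Atp6 with -0.53 ± 0.19 (adjusted p = 0.00991), against 89.8% of entries. On counts in place of FPKM and with the nuclear copies summed in, changes that were made together, neither passed, and the mt-Atp6 difference was -0.07 (adjusted p = 0.547). The call of mt-Nd2 was lost without any of 4 of the 9 mice, and that of mt-Atp6 without A23 (adjusted p = 0.0761). Between Anti-miR-21 and ACEi 0 of 15 passed in limma, against 0.0791% of entries.

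**Figure D4:**
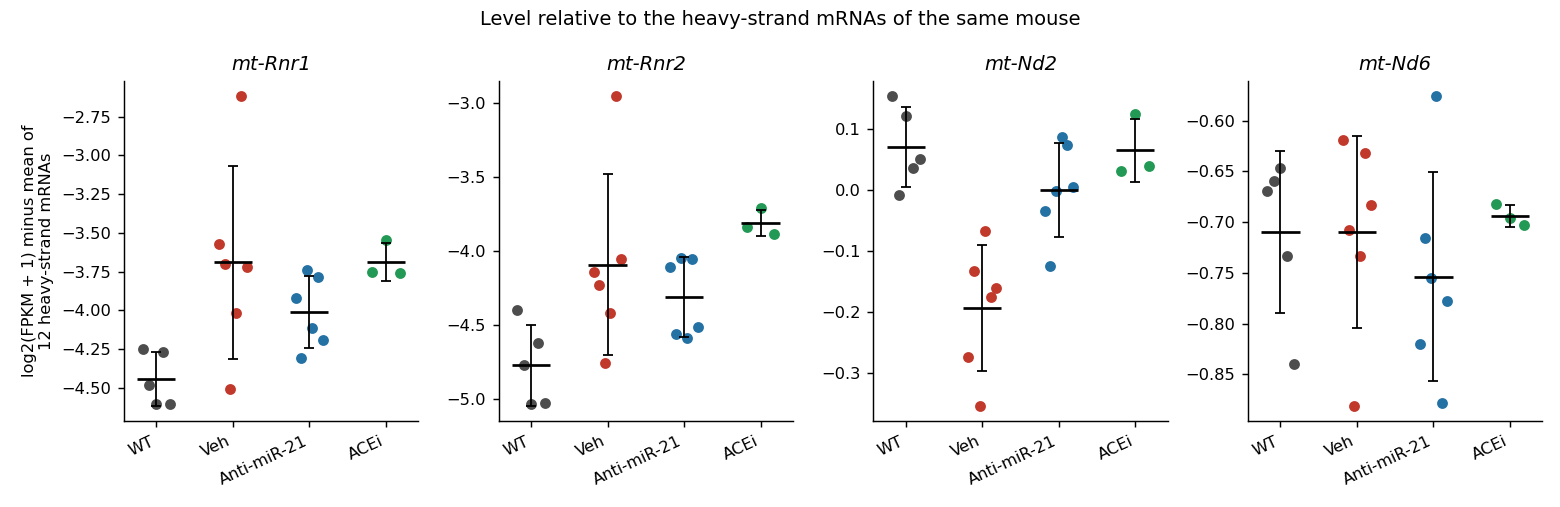
Level of measured members, among them mt-Rnr1, mt-Rnr2, mt-Nd2 and mt-Nd6, relative to the mean of the 12 heavy-strand mRNAs of the same mouse, on a log2 scale, by group. Both rRNAs lie lowest in WT (mean -4.44 for mt-Rnr1 and -4.77 for mt-Rnr2) and spread widely in Veh, and mt-Nd2 is lower in Veh than in WT.

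Several members share their sequence with the nuclear genome, and this sets a limit on their counts. A block of nuclear copies on chromosome 1, chr1:24611535-24616197 on the minus strand of GRCm38, matches 7 of the mRNAs over 294 to 876 bases of each. The start of mt-Nd3 (MT:9459-9488) is shown above that of its copy Gm28438 (chr1:24613090-24613119), with the base that differs in capitals. It is T3C, counted from 1 at the start of the gene, and the only difference over 345 bases. The start of mt-Co2 (MT:7013-7052) stands above that of its copy Gm28661 (chr1:24615526-24615565), which has no difference from it over 681 bases.
start of mt-Nd3: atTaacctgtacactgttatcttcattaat
start of Gm28438: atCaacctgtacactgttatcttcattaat
mt-Co2: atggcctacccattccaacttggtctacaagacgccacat
Gm28661: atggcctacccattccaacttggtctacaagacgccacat
A read inside such a stretch cannot be told apart by its sequence.

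The deposited counts divided these reads differently from mouse to mouse. mt-Co2 received 31.2% to 58.6% of the counts of itself and its copy, with a median of 43.4% over the 20 mice, mt-Atp6 36.5% to 64.2% (median 49.9%) and mt-Co3 44.7% to 68.3% (median 52.7%). mt-Nd3 received 51.6% to 91.4% (median 83.9%) and mt-Nd4l 68.9% to 94.4% (median 84.0%), both lowest in Anti-miR-21 mouse A22. For mt-Co1 and mt-Nd4, whose copies cover only part of the gene, the share on the gene was 87.0% to 98.7% and 99.1% to 99.7%. For the other 6 mRNAs and the rRNAs no annotated copy was found in that block. Sequence of the block outside annotated transcripts was not searched, so a copy there, as of mt-Atp8 beside mt-Atp6, would have been missed. With gene and copy summed, all 7 remained lower in Veh than in WT, and mt-Atp6 fell by 1.48 ± 0.13 (edgeR adjusted p = 3.26e-09) as against 1.25 ± 0.18 alone.

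**Figure D5:**
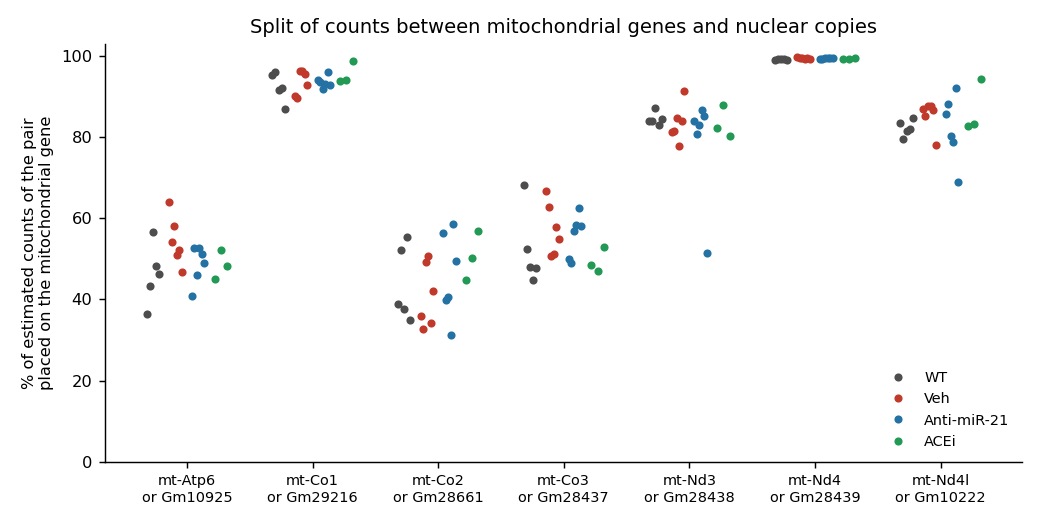
Percent of the estimated counts of a mitochondrial gene and its nuclear copy that were placed on the mitochondrial gene, for 7 genes in each of the 20 mice, on an axis from 0. The split varies most for mt-Co2 (31.2% to 58.6%), mt-Atp6 (36.5% to 64.2%) and mt-Nd3 (51.6% to 91.4%), and mt-Nd4 stays above 99%.

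The FPKM table handled these copies in another way. Searched by the names of the copies and by Atpase6, it holds 1 entry in that block, and it was not searched by position. The ratio of the deposited count to the fragments implied by the FPKM was taken relative to mt-Nd1 of the same mouse, whose ratio is 1.0 by construction. For 8 of the 15 members, mt-Nd1 among them, the ratio was 1.0, to 3 decimals, in all 20 mice, and for mt-Nd4 its median was 0.995. For mt-Co2 and mt-Co3 the ratio was 0.434 and 0.527, so the FPKM table holds more fragments than the count table. For mt-Atp6 it was 3.31, and the entry found in the block, Atpase6 (chr1:24613971-24614812), spans the copy of mt-Atp6 and runs beyond it. Atpase6 had 16505 to 19875 FPKM in WT and 8239 to 11548 in Veh. Given this ratio and this entry, the FPKM of mt-Atp6 is uncertain, and its summed count is the value less open to the split. The authors marked 10 of the 15 measured members as confounded with other genes. These 10 are the measured members that overlap a neighbour within the mitochondrial genome. mt-Co2 and mt-Nd3, which have copies, and Atpase6 were not marked, so the mark does not follow the copies.

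The nuclear genome encodes the partners of these subunits, given here as a fixed list per complex with the edgeR test on counts. Between Veh and WT all tested nuclear subunits were lower: 36 of 36 of complex I, 4 of 4 of complex II, 9 of 9 of complex III, 11 of 11 of complex IV and 16 of 16 of complex V, where 34.0% of all genes were lower. Their median log2 differences were -1.198, -1.40, -1.26, -1.12 and -1.17. On the same counts the mitochondrial members had -1.64 for complex I (7 genes), -1.61 for complex III (mt-Cytb), -1.35 for complex IV (3 genes) and -1.30 for complex V (2 genes). The mitochondrial medians were lower in all 4 complexes, a difference that was not tested. The most abundant nuclear subunit of each complex fell as well: Ndufb9 by 1.26 ± 0.10, Sdhb by 1.59 ± 0.12, Uqcr10 by 1.203 ± 0.10, Cox4i1 by 0.98 ± 0.09 and Atp5b by 1.51 ± 0.12. On FPKM, without the TMM factors, these falls were smaller. The means in Veh and WT were 239 and 382 for Ndufb9, 193 and 390 for Sdhb, and 284 and 420 for Uqcr10. For Cox4i1 they were 689 and 902, and for Atp5b 879 and 1666.

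Under Anti-miR-21 all nuclear subunits of the 5 complexes were higher than in Veh, and under ACEi 35 of 36 of complex I, all of complexes II, III and IV and 15 of 16 of complex V, where 28.8% and 21.0% of all genes were higher. The nuclear medians for complexes I, III, IV and V were 0.80, 0.91, 0.76 and 0.78 in Anti-miR-21 and 0.59, 0.72, 0.54 and 0.58 in ACEi. The mitochondrial medians beside them were 1.01, 1.08, 0.95 and 0.85 in Anti-miR-21 and 0.88, 0.83, 0.76 and 0.66 in ACEi. Between the treatments 0 nuclear subunits passed in edgeR. Both treatment contrasts use the same Veh mice.

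Genes that copy, transcribe and process this genome are given by list in the same test. Of 10 transcription genes 7 were lower and 2 higher in Veh than in WT (median -0.64), where 34.0% of all genes were lower. Polrmt, the mitochondrial RNA polymerase, fell by 0.78 ± 0.08 (edgeR adjusted p = 2.18e-08), Tfam, which packages the genome and starts transcription, by 0.92 ± 0.08 (adjusted p = 3.45e-09), and the elongation factor Tefm by 0.98 ± 0.09 (adjusted p = 4.61e-09). Mean FPKM showed smaller falls. Polrmt had 12.8 in Veh and 14.6 in WT, with overlapping mice, Tfam 8.57 and 10.7, and Tefm 8.06 and 10.7. Of 6 replication genes 5 were lower (median -0.48). Twnk, the helicase, fell by 0.57 ± 0.09, while Polg, the catalytic subunit of the DNA polymerase, had 0.04 ± 0.07 (adjusted p = 0.642). On FPKM, without the TMM factors, the mean of Polg was higher in Veh (11.8 ± 1.44) than in WT (7.96 ± 0.802), and that of Twnk was 10.9 ± 0.828 in Veh and 10.1 ± 1.18 in WT, so the direction for Twnk turned on the scaling.

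Of 22 genes of mitochondrial RNA processing and stability 20 were lower and 1 higher in Veh (median -0.70). Lrpprc, which binds and stabilises mitochondrial mRNAs, fell by 1.24 ± 0.09 (edgeR adjusted p = 1.85e-10) and its partner Slirp by 0.74 ± 0.11 (adjusted p = 4.77e-06). Their falls in mean FPKM were smaller, Lrpprc with 14.3 in Veh and 22.4 in WT and Slirp with 46.1 and 54.4, with overlapping mice for Slirp. All 17 mitochondrial aminoacyl-tRNA synthetases were lower (median -0.70), and of 6 regulators of mitochondrial biogenesis 4 were lower and 2 higher (median -0.74). Ppargc1a, the coactivator PGC-1α, fell by 1.19 ± 0.13 (adjusted p = 8.98e-08), and its mean FPKM was 3.49 in Veh and 5.27 in WT, with overlapping mice. In Anti-miR-21 against Veh the higher calls numbered 6 of 10, 5 of 6, 19 of 22, 17 of 17 and 4 of 6 in these 5 lists, where 28.8% of all genes were higher. In ACEi against Veh they numbered 6, 1, 15, 10 and 3, where 21.0% of all genes were higher, so the 1 of 6 replication genes did not exceed that share. Polg did not pass in either treatment contrast.

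Markers of kidney cell types moved beside these genes, and their part in the results was not tested. Over all genes, edgeR called 34.0% lower in Veh than in WT. Against Veh it called 28.8% higher in Anti-miR-21 and 21.0% higher in ACEi. Shares for the opposite directions are not given here, so counts of markers higher in Veh or lower under treatment stand without one. The 7 proximal tubule markers were all lower in Veh (median -2.40), with a summed level of 13200 to 17100 CPM in WT, 1430 to 4090 in Veh, 7370 to 12200 in Anti-miR-21 and 7550 to 9960 in ACEi, and all 7 were higher in each treated group than in Veh. Thick ascending limb markers had 3 of 4 lower and 1 higher in Veh. Intercalated cell markers had 3 of 3 lower, while podocyte markers had 3 of 4 higher. Fibroblast markers were higher in Veh for 5 of 5, with summed levels of 111 to 283 CPM in WT, 2490 to 3180 in Veh, 499 to 1120 in Anti-miR-21 and 1230 to 1360 in ACEi. Macrophage markers were higher for 5 of 5, at 137 to 150, 771 to 943, 334 to 503 and 431 to 510 CPM in the same order. T cell markers were higher for 4 of 4 and B and plasma cell markers for 3 of 4. Erythroid markers were lower in Veh for 3 of 3, at 648 to 3880 CPM in WT, 7.45 to 243 in Veh, 448 to 929 in Anti-miR-21 and at most 444 in ACEi (Hbb-b1 alone at 128 to 284), and all 3 were higher in each treated group than in Veh. Of 4 adipocyte markers 3 were higher in Veh against WT, with summed levels of 1.35 to 15.7 CPM in WT, 0.0846 to 382 in Veh, 4.11 to 185 in Anti-miR-21 and 0.164 to 6.8 in ACEi. In ACEi 3 of the 4 were lower than in Veh (median -5.38), and in Anti-miR-21 against Veh the adjusted p was 0.115 to 0.757 (edgeR). Of the remaining lists, distal tubule markers had 2 of 3 lower and 1 higher, collecting duct markers 2 of 4 lower, and endothelial markers 2 higher and 1 lower of 4.

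The entries outside the mitochondrial genome whose level followed the mean of the 12 heavy-strand mRNAs most closely over the 20 mice were sought among 14418 protein-coding entries, by Pearson's r of log2(FPKM + 1). The 5 highest were Atp5c1, the γ subunit of the ATP synthase (0.978), Slc52a3, a riboflavin transporter (0.973), Ndufa10 of complex I (0.972), Echdc3 (0.971) and Uqcrfs1, the iron-sulfur subunit of complex III (0.971). The mice fall into 4 groups and the libraries share their scaling, so these values describe likeness across the same groups.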

How the data were processed

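Whole-kidney RNA of 20 mice was sequenced as paired-end reads of 100 bases. Alignment to GRCm38 used OmicSoft software, and the authors deposited FPKM per entry, scaled to transcript length and to the library total, and an estimated (expected) count per gene, without normalization between libraries. Of the positive estimated counts deposited, 27.9% are not whole, and they were rounded for testing. The deposited library table gives the count of alignments per library, 70004591 to 73294858, and the flow cell. The FPKM and library tables also hold 3 libraries with no matching sample, which were not used. Library strand and rRNA removal are not given in the sources used here.

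FPKM of at least 0.1 in at least 3 mice was required (17709 entries), and log2(FPKM + 1) was tested with limma 3.58.1 (moderated variances with a trend). Counts that passed filterByExpr (minimum count 10, minimum total 15; 17622 genes) were scaled by TMM and went through the quasi-likelihood fit of edgeR 4.0.16 in R 4.3.3. Both used all 20 mice with 1 coefficient per group, Benjamini-Hochberg adjustment over all entries or genes, and a threshold of 0.05. Each sample is 1 mouse, so the p-values measure the spread between mice. The scale within mitochondrial RNA subtracted the mean log2(FPKM + 1) of the 12 heavy-strand mRNAs. Adjustment there was also over all entries, not over the measured members alone. Nuclear copies were taken at 95% identity or more over at least 200 bases with a mean count of at least 1000.

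The members, gene lists and marker lists were chosen with earlier results of these data known. All mRNAs and rRNAs were named, 1 nuclear subunit per complex by mean FPKM, and 8 genes of mitochondrial DNA and RNA upkeep. The rule for tRNAs, by mean FPKM, could not be applied to values of 0, and the shortest and longest were named after their values were seen. Alternatives were the pseudocount (0.1), the filter, 3 other scalings of FPKM and 3 of counts, DESeq2 1.42.0, flow cell as a term, flow cell A alone, only the groups compared, the rRNAs as reference and each mouse left out. The summing of nuclear copies and the omission of mice A9 and A19 were added after seeing the data. The steps were tested on simulated data. Plots used Python 3.11.15 with matplotlib 3.10.9, numpy 2.4.6 and pandas 2.3.3.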

Additional observations from a re-analysis of the deposited data

Results flagged for a closer look

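Of 51 groups of mice examined among the measured members, 1 had a mouse far from the others. The FPKM of mt-Rnr2 in Veh was 465.4 in mouse A19, against 270.1 in the next highest mouse, a gap of 0.676 of the range of the group. Chance flags about 1 in 20 groups of this size. The same mouse had the highest mt-Rnr1 and the lowest FPKM of 11 of the 13 mRNAs in Veh. The cause was not tested.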

How the results depend on the processing

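The lower calls in Veh and the higher calls in Anti-miR-21 against Veh stayed within 1.5 times their number under every alternative run, on FPKM and on counts. Leaving out each mouse gave 13 to 15 of 15 on FPKM and 15 to 15 on counts for Veh against WT, and 12 to 14 and 15 to 15 for Anti-miR-21 against Veh. For ACEi against Veh it gave 6 to 10 on FPKM, 6 without mouse A23, and 11 to 14 on counts. FPKM calls against WT were less stable. In Anti-miR-21 against WT 6 became 0 without the filter, 2 with flow cell as a term, 2 on flow cell A alone and 1 to 6 with each mouse left out, 1 without WT mouse A14. In ACEi against WT 6 became 3 without the filter, 10 with upper-quartile scaling, 10 with only these groups fitted (8 lower and 2 higher, the rRNAs) and 3 to 6 with each mouse left out. On counts these ranges were 9 to 10 and 9 to 12. Between the treatments the count was 0 to 0 on all scales.

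Relative to the mitochondrial mRNAs, Veh against WT went from 3 to 9 with the rRNAs as reference and 3 to 4 with each mouse left out. There mt-Rnr2, mt-Atp8 and mt-Nd6 changed sign, to -0.036, -0.575 and -0.715. The change of reference lowers every member alike, by 0.715, the mean difference of the rRNAs on the mRNA reference. Anti-miR-21 against Veh went from 1 to 0 with the rRNAs as reference and 0 to 1 with each mouse left out, and without A9 and A19 the 1 call was mt-Rnr1, lower. ACEi against Veh went from 2 to 1 with the rRNAs as reference, 1 with flow cell as a term, 0 on counts with copies summed, where both the table and the summing changed, and 0 to 3 with each mouse left out. The cause of the shifts under the other settings was not tested. With other entries marked confounded left out, the share of summed FPKM was 29.1% in WT, 18.6% in Veh, 25.7% in Anti-miR-21 and 23.9% in ACEi, and with each mouse left out the share as reported ran from 23.4% to 24.1%, 13.6% to 14.4%, 20.04% to 20.9% and 18.6% to 19.1%. Flow cell A alone was not run for ACEi, which has 1 library there. No paired analysis was possible because the mouse names are unique and pair no mice. The summing of copies and the omission of A9 and A19 were chosen after seeing the data.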
